A study of Mus musculus with 24 samples.

Results

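The genes described here are the sarcomere genes of the thin filament, the Z-disc and their partners in mouse skeletal muscle: actins, troponins, tropomyosins, myosin light chains, myosin-binding proteins, titin, nebulin, the proteins that anchor them at the Z-disc and M-band, and the stretch-responsive Csrp3, Ankrd1 and Ankrd2. The members were the genes of a written list whose symbol stood as the gene name of a probe on the array, without the myosin heavy chains. All 38 listed genes were found, with 76 of the 56605 probes, and all 38 were among the 19937 gene names tested. Total RNA was measured on 24 one-colour Agilent arrays, 8 mice in each of 3 groups. HFD_O3 mice belong to the omega-3 lineage and received the high fat diet, HFD_Cont mice belong to the control lineage and received the high fat diet, and STD_Cont mice belong to the control lineage and received the low fat control diet. An omega-3 lineage group on the control diet was not analysed here, so HFD_O3 against STD_Cont changes diet and lineage together. The sources used here do not give the muscle taken, the sex and age of the mice, or what distinguishes the omega-3 lineage.

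In the sarcomere, calcium binding to troponin C moves troponin I, troponin T and tropomyosin on the actin filament and so lets myosin bind. Slow and fast fibres carry different isoforms of most of these proteins, each from its own gene, and slow fibres also carry the heavy chain Myh7. The Z-disc cross-links thin filaments through alpha-actinin and holds titin, and nebulin, leiomodins and tropomodulins set or cap thin filament length. A whole-muscle RNA sample mixes all its fibres, and fewer slow fibres cannot be told apart from less slow-isoform RNA per fibre.

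Probe sequences are shown for the slow isoforms whose spread the results turn on, as printed on the array (5′ to 3′, mm9 coordinates of the file). The Tnnc1 and second Tpm3 probes gave the values of their gene, and the others are further probes of theirs. Coordinates that span more than the 60 bases of a probe are as the file gives them.
Tnnt1 probe, chr7:4460086-4460145, minus strand: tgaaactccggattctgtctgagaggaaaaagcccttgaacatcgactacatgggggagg
Tnni1 probe, chr1:137705328-137706203, plus strand: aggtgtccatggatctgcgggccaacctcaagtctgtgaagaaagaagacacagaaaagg
Tnnc1 probe, chr14:32023360-32023776, plus strand: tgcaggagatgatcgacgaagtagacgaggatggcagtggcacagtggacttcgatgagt
Tpm3 first probe, chr3:89893733-89893942, plus strand: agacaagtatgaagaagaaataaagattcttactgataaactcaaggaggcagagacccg
Tpm3 second probe, chr3:89892985-89893044, plus strand: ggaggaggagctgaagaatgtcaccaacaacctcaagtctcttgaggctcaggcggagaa
The probes of Myl3, the slow essential light chain, and Myl1, its fast counterpart, are shown because they share sequence. Capitals mark the bases that are identical where the end of the Myl3 probe is laid over the start of the Myl1 probe, and the Myl1 probe is shown up to its stop codon.
Myl3 probe, chr9:110671632-110671926, plus strand: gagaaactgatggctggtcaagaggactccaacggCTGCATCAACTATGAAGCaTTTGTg
Myl1 probe, chr1:66971597-66972798, minus strand: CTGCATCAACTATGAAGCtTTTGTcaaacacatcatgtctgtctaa
Over the 25 overlapping bases 23 were identical, with an unbroken run of 18, and the differences were A54T and G60C (Myl3 base, position from the 5′ end of the Myl3 probe, Myl1 base). This was the longest run shared by probes of different members. The next longest was 13 bases, between a Tnni1 and a Tpm3 probe.

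Promoters are shown for 3 slow genes that varied together and for 2 fast genes that did not vary with them, as the 250 bases before the start of the gene in RefSeq on GRCm38.p6. Capitals mark E-boxes (CANNTG, which reads the same on both strands), the motif that myogenic factors such as MyoD bind. Tnni1 has 2 overlapping windows: the 1 shown holds 4 E-boxes, and the other, at chr1:135799261-135799510, holds 2.
Tnnt1 promoter, chr7:4515976-4516225, minus strand: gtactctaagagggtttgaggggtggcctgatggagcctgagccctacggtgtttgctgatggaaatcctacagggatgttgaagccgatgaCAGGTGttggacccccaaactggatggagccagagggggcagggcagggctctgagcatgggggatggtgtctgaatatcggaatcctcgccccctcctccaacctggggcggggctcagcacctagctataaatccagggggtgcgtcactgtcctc
Tnni1 promoter, chr1:135799171-135799420, plus strand: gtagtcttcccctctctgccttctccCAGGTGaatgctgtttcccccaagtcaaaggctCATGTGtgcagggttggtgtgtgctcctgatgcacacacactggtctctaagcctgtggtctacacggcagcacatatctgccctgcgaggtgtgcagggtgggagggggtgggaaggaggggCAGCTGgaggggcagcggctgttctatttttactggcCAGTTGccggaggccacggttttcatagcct
Tnnc1 promoter, chr14:31208062-31208311, plus strand: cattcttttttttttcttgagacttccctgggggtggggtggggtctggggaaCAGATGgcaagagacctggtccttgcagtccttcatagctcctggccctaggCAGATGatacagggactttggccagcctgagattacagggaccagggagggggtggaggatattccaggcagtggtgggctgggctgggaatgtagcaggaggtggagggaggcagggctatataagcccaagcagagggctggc
Mylpf promoter, chr7:127211358-127211607, plus strand: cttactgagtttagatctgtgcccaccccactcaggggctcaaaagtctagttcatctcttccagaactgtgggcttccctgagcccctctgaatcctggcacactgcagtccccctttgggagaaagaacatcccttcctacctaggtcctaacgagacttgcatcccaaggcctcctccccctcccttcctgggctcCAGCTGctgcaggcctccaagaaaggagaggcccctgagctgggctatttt
Tnnc2 promoter, chr2:164779735-164779984, minus strand: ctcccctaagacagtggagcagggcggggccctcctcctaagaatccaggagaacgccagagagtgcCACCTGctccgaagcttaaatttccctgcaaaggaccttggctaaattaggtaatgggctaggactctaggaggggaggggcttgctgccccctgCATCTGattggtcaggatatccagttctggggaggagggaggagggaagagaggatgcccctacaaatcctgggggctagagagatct
RefSeq promoters were matched for 28 of the 38 genes, in 33 windows. All 11 windows of the slow isoforms and all 5 of the fast isoforms held an E-box. So did 29 of the 33 member windows (87.9%) and 66.2% of all 32851 windows of that length. The MEF2 motif, searched by name on both strands, was in 1 of the 11 slow windows and 0 of the 5 fast ones, against 2.92% of all windows. The CACC box (CCACC, either strand, which can overlap an E-box) was in 8 of 11 slow and 4 of 5 fast windows, against 54.3% of all windows. The MCAT motif (CATTCC, either strand) was in 2 of 11 slow and 3 of 5 fast windows, against 12.6% of all windows. These matches describe the windows only.

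All 9 skeletal muscle markers written for this tissue, such as Ckm and Ryr1, were above background in every group. On each array 52.04 to 60.68% of the spots exceeded background clearly, 0 spots of the 76 member probes were saturated, and the probe used for each member was well above background on all 24 arrays. Levels are given as log2 of the processed intensity relative to the 75th percentile of the same array, so that 0 is that percentile. They do not compare one gene with another, since each probe has its own response. One array, HFD_Cont 4, stood apart in the slow genes, and results that rest on it are given with and without it.

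None of the 38 genes differed between groups past the threshold. By limma's moderated test with Benjamini-Hochberg adjustment over all 19937 names, 0 of 38 members were higher and 0 lower in HFD_Cont than in STD_Cont mice, where 2.91% of all names passed, 1.43% as higher and 1.48% as lower. In HFD_O3 against HFD_Cont mice 0 of 38 passed, as did 0 of all names (0.0%). In HFD_O3 against STD_Cont mice 0 of 38 passed, where 0.597% of all names did. At an unadjusted limma p under 0.05 the members gave 0, 0 and 1 in these comparisons, against 16.6%, 7.09% and 11.2% of all names. The members' median log2 difference was -0.04 for HFD_Cont against STD_Cont, 0.03 for HFD_O3 against HFD_Cont and -0.00395 for HFD_O3 against STD_Cont, and those of all names were 0.00228, -0.01 and -0.02. The comparisons share groups, so these values are not independent of each other. The smallest adjusted p of a member was 0.344, 0.732 and 0.274 in the same order.

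**Figure D1:**
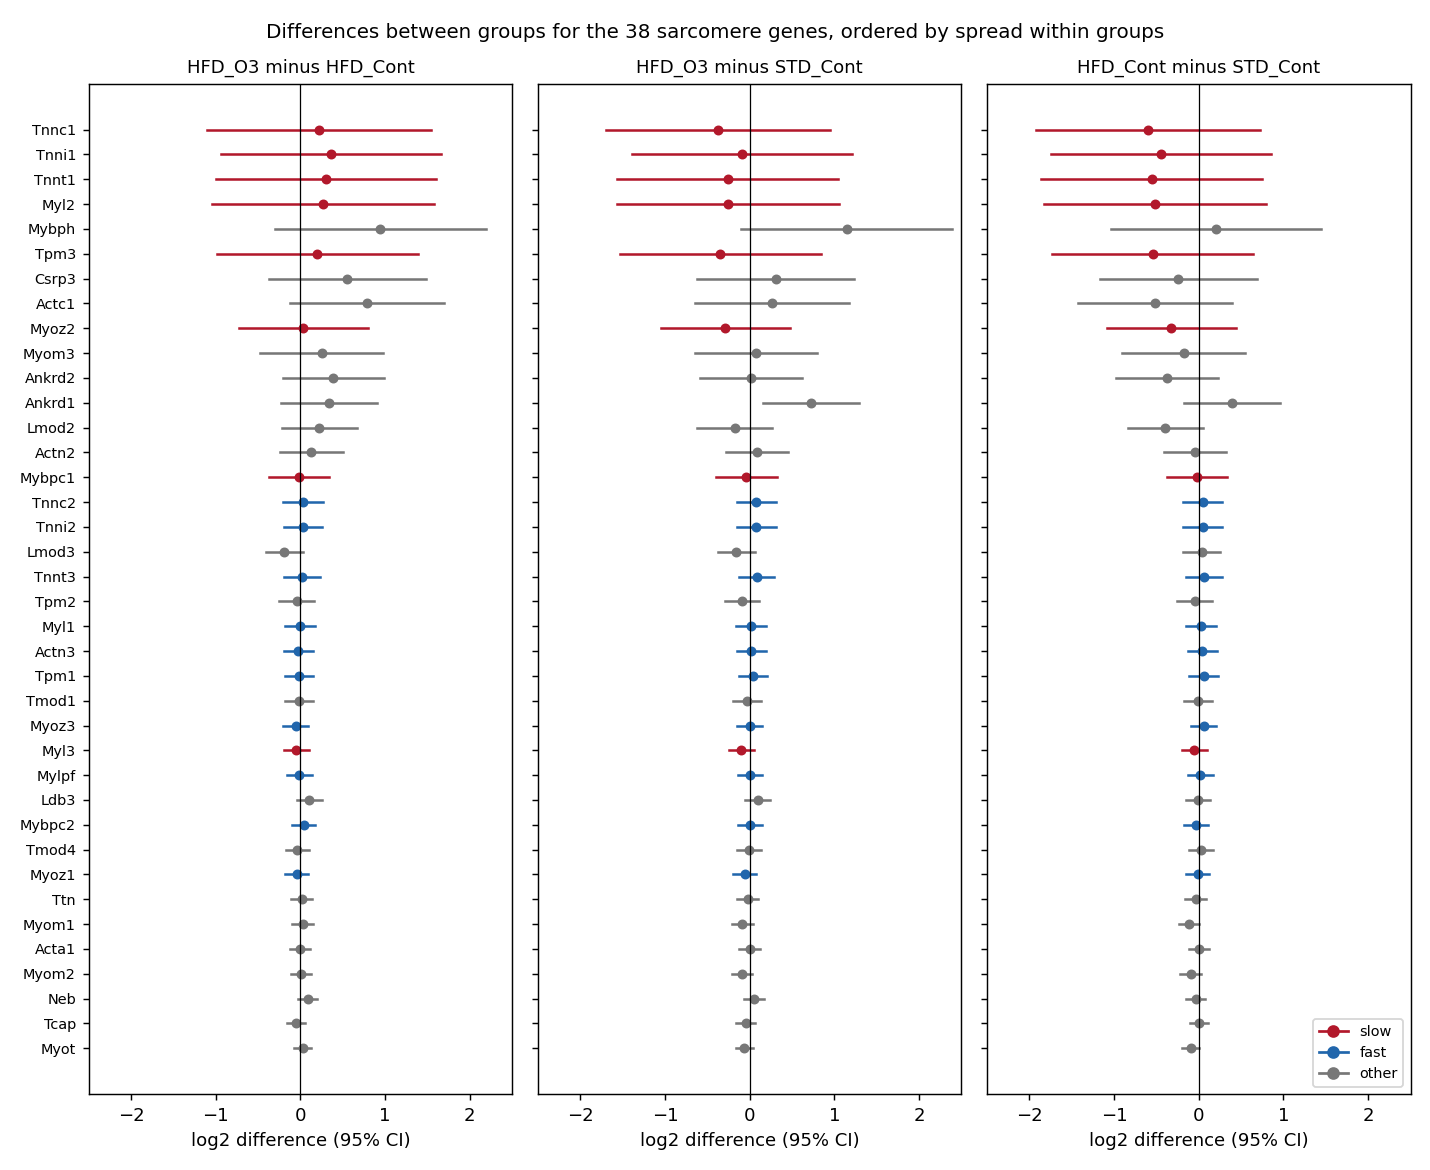
Log2 difference between groups (x axis) for each of the 38 sarcomere genes (y axis, ordered by their spread within groups, widest at the top), with 95% confidence intervals from limma; red marks slow isoforms, blue fast isoforms and grey the other members. The slow genes at the top have intervals that reach from -1.92 to 1.66, and the intervals of the fast genes reach from -0.20 to 0.31. The differences of the fast genes lie between -0.06 and 0.08 in all 3 comparisons.

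The slow troponins varied widely among mice of 1 group and their groups overlapped. Tnnt1, slow troponin T, had a lowest, median and highest log2 level of 6.74, 7.62 and 8.07 in HFD_O3, 2.71, 7.39 and 8.88 in HFD_Cont and 6.79, 7.44 and 9.14 in STD_Cont. Tnni1, slow troponin I, had 4.48, 5.57 and 5.94 in HFD_O3, 0.67, 5.14 and 6.74 in HFD_Cont and 4.36, 5.18 and 6.92 in STD_Cont. Tnnc1, the troponin C of slow and heart muscle, had 2.92, 3.91 and 4.44 in HFD_O3, -0.79, 3.65 and 5.32 in HFD_Cont and 2.96, 3.83 and 5.64 in STD_Cont. For each of the 3 genes the lowest value was HFD_Cont 4, and the lowest of the other 7 HFD_Cont arrays were 6.58, 3.98 and 2.74. The log2 difference of HFD_Cont from STD_Cont was -0.56 ± 0.63 (SE) for Tnnt1, -0.44 ± 0.63 for Tnni1 and -0.60 ± 0.64 for Tnnc1, with adjusted p of 0.734, 0.801 and 0.716. Without HFD_Cont 4 these became 0.08, 0.16 and 0.02. HFD_O3 minus HFD_Cont was 0.30, 0.36 and 0.22 for the same genes, and -0.34, -0.25 and -0.39 without that array.

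The fast troponins were nearly level. Tnnt3, fast troponin T, had 11.17, 11.66 and 11.92 in HFD_O3, 11.40, 11.53 and 11.93 in HFD_Cont and 11.39, 11.52 and 11.79 in STD_Cont. Tnni2, fast troponin I, had 11.08, 11.57 and 11.89 in HFD_O3, 11.24, 11.48 and 11.89 in HFD_Cont and 11.33, 11.43 and 11.80 in STD_Cont. Tnnc2, fast troponin C, had 10.78, 11.25 and 11.55 in HFD_O3, 10.93, 11.16 and 11.59 in HFD_Cont and 11.04, 11.11 and 11.45 in STD_Cont. The 3 groups overlapped for each gene, and HFD_Cont 4 lay within the range of the other arrays. All 3 genes were lowest on HFD_O3 3, the array of highest 75th percentile (293.2). Tnnt3, Tnni2 and Tnnc2 were highest on HFD_Cont 5, HFD_O3 6 and HFD_Cont 7, with percentiles of 167.9, 163.4 and 161.9. The part of the scaling in these levels was not tested. The largest difference among them was 0.08 ± 0.10 for Tnnt3 in HFD_O3 against STD_Cont mice (adjusted p = 0.831, limma).

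**Figure D2:**
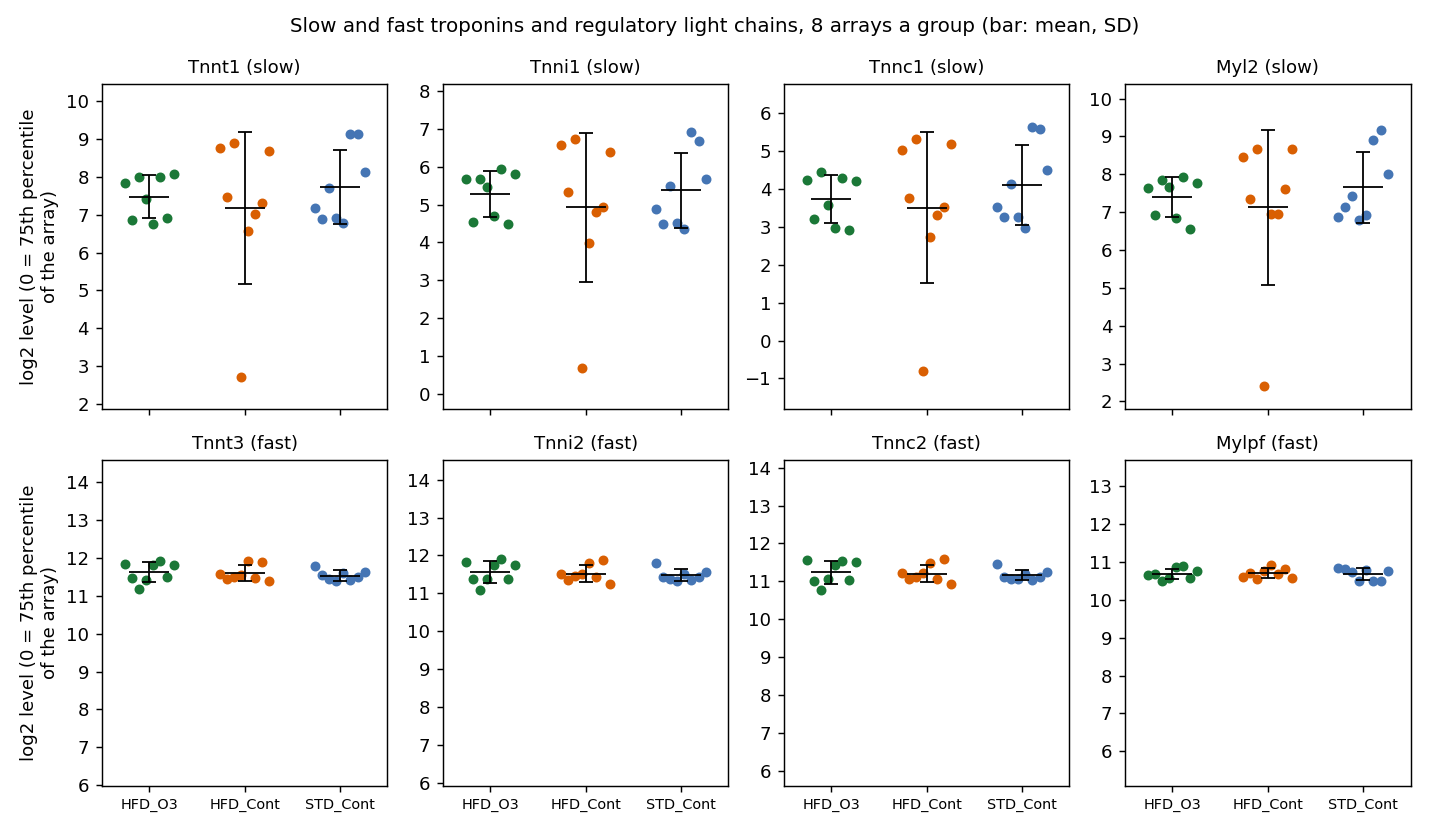
Log2 level (y axis, 0 is the 75th percentile of the array) of slow isoforms (top row) and fast isoforms (bottom row) in HFD_O3, HFD_Cont and STD_Cont mice, a point per array with the mean and SD of 8 arrays; every panel spans the same number of log2 units. The slow genes spread over several log2 units, with HFD_Cont 4 at 2.71 for Tnnt1, while the fast genes stay in a narrow band.

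Among the actins and tropomyosins, Acta1, the main skeletal actin, lay between -0.004224 and 0.004187 over the 3 comparisons, with 95% intervals within -0.12 to 0.12. On the probes used, Tpm1, the alpha-tropomyosin of fast fibres, and Tpm2, the beta form, reached differences of 0.06 (HFD_Cont against STD_Cont) and -0.09 (HFD_O3 against STD_Cont). A further Tpm1 probe, at chr9:66880274-66880333, differed by 0.33 ± 0.15 in HFD_Cont against STD_Cont mice (adjusted p = 0.278, limma). In HFD_O3 against HFD_Cont mice that probe differed by -0.38 ± 0.15 (adjusted p = 0.672). Tpm3, the slow form, differed by -0.54 ± 0.57 in HFD_Cont against STD_Cont mice (adjusted p = 0.711), and by -0.05 without HFD_Cont 4. Actc1, the cardiac and developmental actin, was 0.79 ± 0.44 higher on average in HFD_O3 than in HFD_Cont mice, which did not pass (adjusted p = 0.732, exact permutation p = 0.04802, unadjusted).

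Of the 5 genes that set thin filament length, Neb, Lmod2, Lmod3, Tmod1 and Tmod4, none passed in any comparison. Lmod2, a leiomodin that elongates thin filaments, showed the largest difference, -0.40 ± 0.22 in HFD_Cont against STD_Cont mice (95% interval -0.84 to 0.05, adjusted p = 0.374), and -0.25 ± 0.19 without HFD_Cont 4 (adjusted p = 0.588). Lmod3, its skeletal relative, differed by -0.19 ± 0.11 in HFD_O3 against HFD_Cont mice (adjusted p = 0.732), with 0 of 8 HFD_O3 arrays above the HFD_Cont median. The nebulin gene Neb, the ruler along the thin filament, stayed within -0.04 to 0.09 over the 3 comparisons.

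Of the 8 Z-disc genes, 0 passed in any comparison. The median difference of the list was -0.01 for HFD_Cont against STD_Cont, 0.00275 for HFD_O3 against HFD_Cont and -0.02 for HFD_O3 against STD_Cont. Actn3, the alpha-actinin of fast fibres, lay between -0.02 and 0.04 over the 3 comparisons, and Actn2, its relative in all fibres, between -0.04 and 0.13. Without HFD_Cont 4, Actn2 was 0.09 for HFD_Cont against STD_Cont and -0.00644 for HFD_O3 against HFD_Cont, so both signs turned. These values are of the probe used. A further Actn2 probe, at chr13:12400548-12400607, differed by 1.23 ± 0.43 in HFD_O3 against STD_Cont mice (adjusted p = 0.233, limma). It was picked out after its values were seen. Tcap, which caps titin at the Z-disc, lay between -0.05 and 0.00364. Myot, an actin cross-linker, had 0 of 8 HFD_Cont arrays above the STD_Cont median and did not pass (log2 difference -0.09 ± 0.05, adjusted p = 0.345, exact permutation p = 0.0326, unadjusted). Ldb3, which ties alpha-actinin to the Z-disc, has a second probe, and that probe had 5.99, 6.10 and 6.35 in HFD_Cont and 6.27, 6.35 and 6.53 in STD_Cont. Its difference of -0.22 ± 0.07 was the closest to the threshold among all 76 probes tested one by one for that comparison (adjusted p = 0.0659), where 2.67% of all 29245 probes passed. None of the 76 passed in any comparison, and 0.0% of all probes passed for HFD_O3 against HFD_Cont and 0.551% for HFD_O3 against STD_Cont. The probe used for Ldb3 differed by -0.01 ± 0.07, and the second was picked out after its values were seen.

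The slow regulatory light chain Myl2 behaved like the slow troponins and the other light chains did not. Myl2 had 6.56, 7.66 and 7.94 in HFD_O3, 2.39, 7.48 and 8.67 in HFD_Cont and 6.79, 7.27 and 9.17 in STD_Cont. Its fast counterpart Mylpf had 10.51, 10.67 and 10.88 in HFD_O3, 10.56, 10.70 and 10.92 in HFD_Cont and 10.50, 10.75 and 10.85 in STD_Cont. Groups overlapped for both genes, and the extreme arrays lay 109-fold apart for Myl2, 6.08-fold without HFD_Cont 4, and 1.34-fold for Mylpf. Myl3 had 9.45, 9.64 and 9.78 in HFD_O3, 9.37, 9.71 and 9.83 in HFD_Cont and 9.34, 9.77 and 9.82 in STD_Cont. Myl1 had 10.78, 11.07 and 11.28 in HFD_O3, 10.84, 11.02 and 11.32 in HFD_Cont and 10.85, 11.02 and 11.28 in STD_Cont. A further Myl1 probe, at chr1:66991114-66991173, differed by -0.93 ± 0.31 in HFD_O3 against HFD_Cont mice (adjusted p = 0.626, limma). Myl3 is listed as a slow isoform and had the narrow spread of the fast genes, on the probe that shares an 18-base run with the Myl1 probe printed above. The part of that shared run in the Myl3 values was not tested. Mybpc1, the slow myosin-binding protein C, and Mybpc2, the fast one, lay between -0.04 and 0.04 over the 3 comparisons.

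Mybph, myosin-binding protein H, was singled out after its values were seen because its spread was among the widest. It had 1.45, 3.82 and 5.13 in HFD_O3, 1.03, 2.83 and 3.74 in HFD_Cont and 0.38, 2.45 and 4.90 in STD_Cont, so that the groups overlapped. Its log2 difference of 1.15 ± 0.60 in HFD_O3 against STD_Cont mice, with 7 of 8 HFD_O3 arrays above the STD_Cont median, was the largest of any member on the probes used and did not pass (adjusted p = 0.492, limma).

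On the probes used, titin and the M-band genes Myom1 and Myom2 were narrow in spread, and Myom3 was not. A further Ttn probe, at chr2:76674450-76674629, had an SD within groups of 0.875. Ttn, the spring from Z-disc to M-band, lay between -0.04 and 0.01 over the 3 comparisons. Myom1 and Myom2, which cross-link myosin at the M-band, were -0.11 ± 0.06 and -0.10 ± 0.06 in HFD_Cont against STD_Cont mice (adjusted p = 0.345 and 0.436). For Myom1 the exact permutation p in that comparison was 0.0284, unadjusted. Myom3 was -0.18 ± 0.35 there and 0.25 ± 0.35 in HFD_O3 against HFD_Cont mice, and 0.14 ± 0.27 and -0.06 ± 0.27 without HFD_Cont 4. None of the 4 genes passed in any comparison.

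Among the stretch-responsive genes, Ankrd1, a titin-binding ankyrin-repeat protein induced by mechanical load, gave the only unadjusted limma p under 0.05 of the members. Ankrd1 had -0.04, 1.09 and 2.63 in HFD_O3, 0.35, 0.81 and 1.66 in HFD_Cont and -0.32, 0.48 and 0.99 in STD_Cont. The groups overlapped, and 6 of 8 HFD_O3 arrays lay above the STD_Cont median. The difference of HFD_O3 from STD_Cont was 0.73 ± 0.27 (95% interval 0.16 to 1.30, unadjusted p = 0.0139, adjusted p = 0.274, exact permutation p = 0.0362), and the adjusted p ranged from 0.11 to 0.988 over the alternatives. Within slides it was 0.98, 1.01 and 0.12. Ankrd2, its relative of slow fibres, had 5.70, 6.24 and 6.55 in HFD_O3, 4.04, 5.87 and 6.88 in HFD_Cont and 5.72, 5.94 and 7.23 in STD_Cont. Csrp3, the muscle LIM protein, had 4.48, 4.93 and 5.75 in HFD_O3, 1.35, 4.97 and 5.79 in HFD_Cont and 4.03, 4.49 and 6.0 in STD_Cont. Neither passed in any comparison, and both had their lowest value in HFD_Cont 4.

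The members differed widely in how much they varied among mice of 1 group. The pooled SD within groups was 1.35 log2 units for Tnnc1, at the 99.82th percentile of all 19937 names, and 1.33 for Tnni1, Tnnt1 and Myl2. It was 1.27 for Mybph, 1.21 for Tpm3, 0.945 for Csrp3 and 0.926 for Actc1. Myoz2, the slow calsarcin of the Z-disc, had 0.777 and Myom3, the M-band protein of slow and intermediate fibres, 0.738. Of the 8 slow isoforms, Mybpc1 at 0.36 and Myl3 at 0.14 were narrower. The 10 fast isoforms lay between 0.129 and 0.229. The narrowest member was Myot at 0.0874, at the 6.505th percentile. Without HFD_Cont 4 the SD was 0.923 for Tnnc1, 0.919 for Tpm3, 0.899 for Tnni1, 0.842 for Tnnt1, 0.767 for Myl2, 0.602 for Csrp3, 0.553 for Myoz2 and 0.542 for Myom3. Mybph and Actc1 stayed at 1.27 and 0.923, and the fast troponins lay at 0.213 to 0.235.

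**Figure D3:**
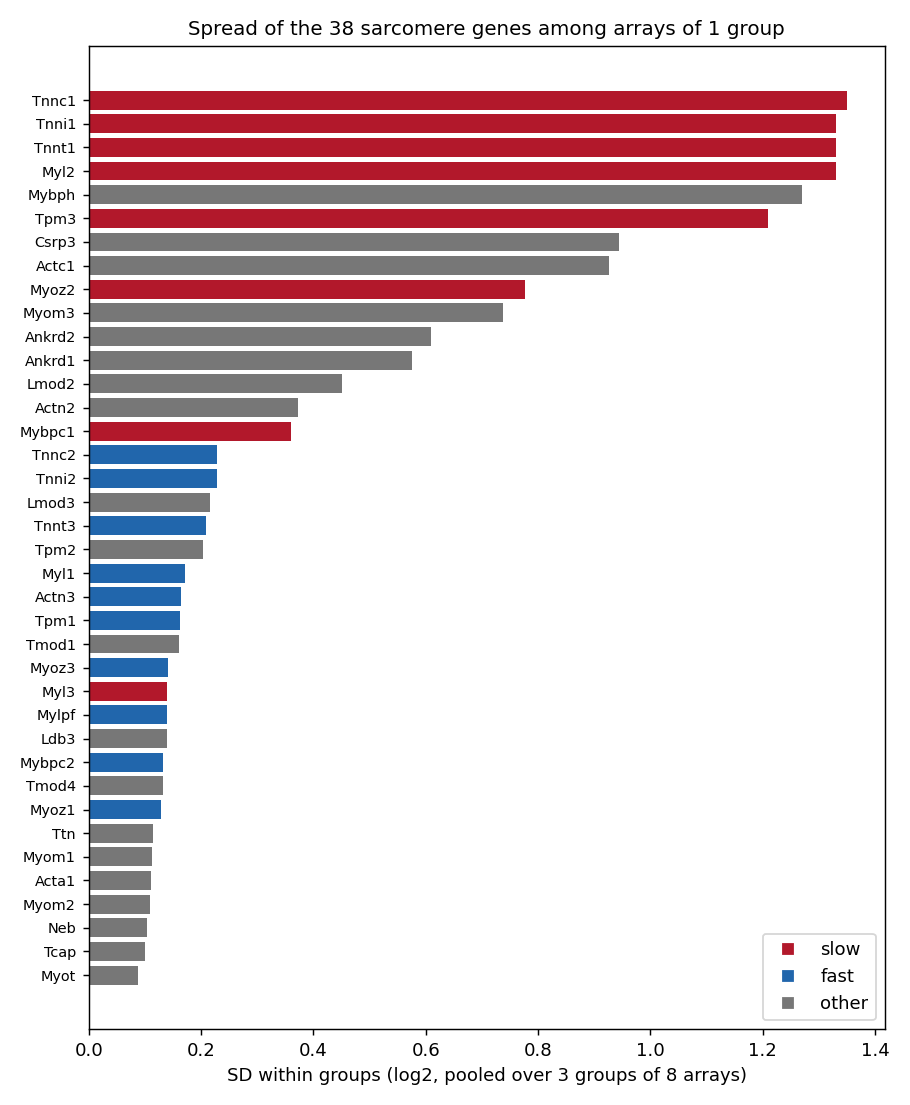
Pooled SD within the 3 groups of 8 arrays (x axis, log2 units, bars start at 0) for each of the 38 sarcomere genes (y axis), coloured red for slow, blue for fast and grey for other members. 6 of the 8 slow isoforms lie at 0.777 or above, and all 10 fast isoforms at 0.229 or below.

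Each array's balance of slow and fast isoforms was described as the mean of the 8 slow genes minus that of the 10 fast genes, after centring each gene over the 24 arrays. It was -0.03 ± 0.40 in HFD_O3 (range -0.63 to 0.52), -0.20 ± 1.45 in HFD_Cont (-3.25 to 1.23) and 0.22 ± 0.84 in STD_Cont (-0.56 to 1.53; SD, n = 8 each). The groups overlapped. On this scale the slow side carried the spread. The mean of the slow genes had an SD of 0.388, 1.39 and 0.758 in HFD_O3, HFD_Cont and STD_Cont. The mean of the fast genes had 0.146, 0.132 and 0.124 in the same order. These SDs are relative to each gene's own level and do not compare amounts of RNA. Tnnt3, Tnni2, Tnnc2, Myl1 and Tpm1 were lowest on HFD_O3 3, the array of highest scaling percentile (293.2), and the other fast genes on other arrays. The part of the scaling in the spread of the fast genes was not tested. Without HFD_Cont 4, the 7 remaining HFD_Cont arrays averaged 0.24 ± 0.82.

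The balance differed between slides in opposite directions. HFD_Cont minus STD_Cont was -0.41 over all arrays, 1.15 on slide 1, -1.81 on slide 2 and -0.99 on slide 3, and 0.02 without HFD_Cont 4, which lay on slide 2. HFD_O3 minus HFD_Cont was 0.17 over all arrays, -0.59, 1.96 and -0.27 on slides 1, 2 and 3, and -0.27 without that array. HFD_O3 minus STD_Cont was -0.25 over all arrays and 0.56, 0.14 and -1.26 on the 3 slides. The balance is a score over chosen genes and is given as a description, with no test. Each group had only 2 or 3 arrays on a slide. On slide 2 the 2 HFD_Cont arrays were HFD_Cont 4, at -3.25, and HFD_Cont 5, at -0.88. No direction of the slow-to-fast balance between groups held on all 3 slides.

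**Figure D4:**
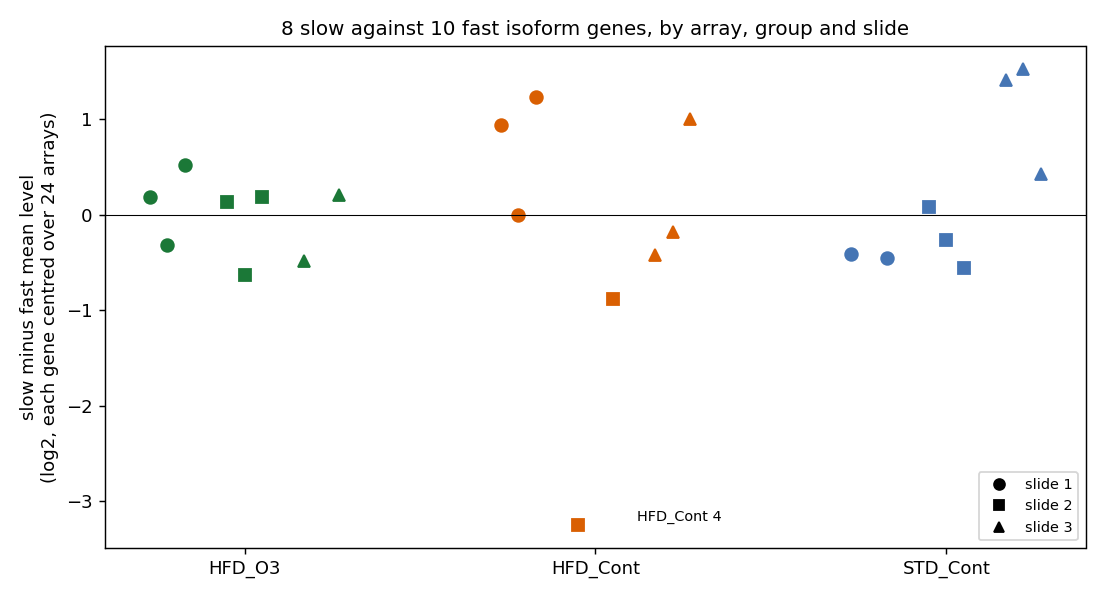
Mean centred log2 level of 8 slow isoform genes minus that of 10 fast isoform genes (y axis) for each array in HFD_O3, HFD_Cont and STD_Cont mice (x axis), with circles, squares and triangles for slides 1, 2 and 3. HFD_Cont 4 lies at -3.25, and the groups overlap.

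HFD_Cont 4 was the array lowest in slow-isoform RNA. Its mean of the slow genes was -3.21 on the centred scale, where the next lowest of the 24 arrays was -0.637, and its mean of the fast genes was 0.04. Its Myh7 level was 1.91, against 6.15 for the next lowest array. Its white adipocyte score, the mean centred level of 10 adipocyte markers, was 1.95, the highest of the 24. The part of adipose tissue in its slow-gene levels was not tested.

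Myh7, the slow myosin heavy chain and no member, was used to ask which members varied with slow-fibre myosin among mice of the same group. Over the 24 arrays, with each gene centred on its group means, 11 of 38 members were positively related to Myh7 and 0 negatively (permutation within groups, 100000 resamples, two-sided, Benjamini-Hochberg over 19880 names), where 1.17% of all names passed as positive and 0.166% as negative. They were 6 of the 8 slow isoforms, 0 of the 10 fast isoforms and 5 of the 20 other members. Pearson's r was 0.997 for Tnnt1 (rho 0.983), 0.992 for Tnnc1 (0.98), 0.99 for Tnni1 (0.957), 0.988 for Myl2 (0.956), 0.975 for Tpm3 (0.957) and 0.962 for Myoz2 (0.932). Each had a permutation p of 1e-05, the smallest 100000 resamples can give, and an adjusted p of 0.00423. For these 6 genes r stayed between 0.924 and 0.991 without the 2 arrays farthest from the Myh7 median, HFD_Cont 4 and STD_Cont 7, and within slides it was between 0.88 and 0.998.

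The slope says how many log2 units a gene moved for each log2 unit of Myh7. It was 0.957 ± 0.026 (SE) for Tnnc1, 0.945 ± 0.017 for Tnnt1, 0.942 ± 0.033 for Myl2, 0.937 ± 0.031 for Tnni1 and 0.842 ± 0.043 for Tpm3, so these transcripts moved almost one for one with the heavy chain. Without HFD_Cont 4 the slopes were 1.049, 0.959, 0.854, 1.012 and 1.037 in the same order, so that Myl2 and no longer Tpm3 had the shallowest. Myoz2 had a shallower slope of 0.535 ± 0.034, and 0.588 without HFD_Cont 4. The remaining slow isoforms did not pass: Myl3 had r = 0.536 (adjusted p = 0.24) with a slope of 0.053 ± 0.019, and Mybpc1 had r = 0.459 (adjusted p = 0.41) with a slope of 0.118 ± 0.051. Without HFD_Cont 4 their slopes were 0.041 and 0.222. The fast isoforms had r between -0.464 and -0.103, and 0 of 10 passed. How far a change in the share of slow fibres would move the fast isoforms on this scale was not tested.

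**Figure D5:**
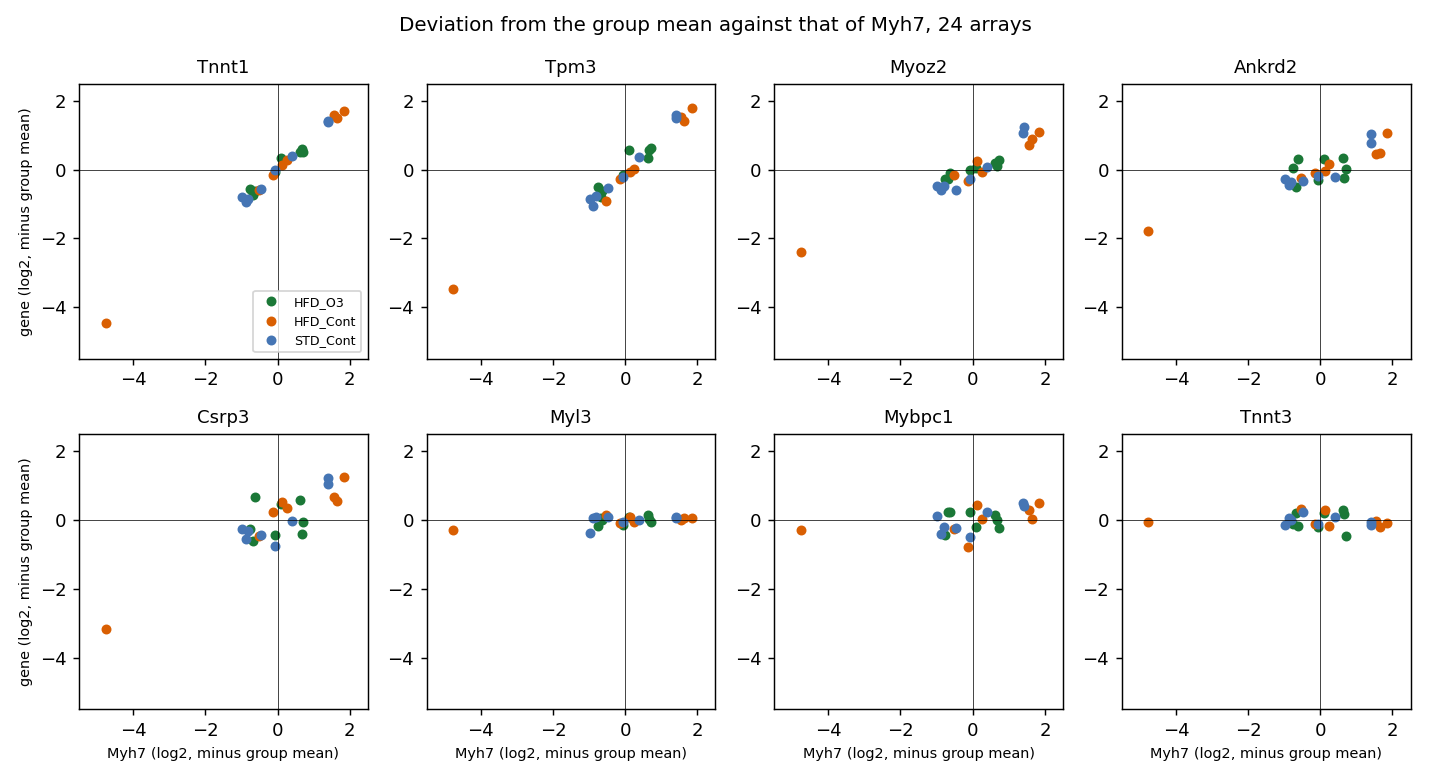
Log2 level minus its group mean for 8 members (y axes) against that of Myh7 (x axes), a point per array and the same scale in each panel, in HFD_O3, HFD_Cont and STD_Cont mice. Tnnt1 and Tpm3 follow Myh7 closely, Myoz2 with a slope of 0.535, and Myl3, Mybpc1 and Tnnt3 lie near the horizontal; the point at the far left is HFD_Cont 4.

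The other 5 members that passed were Myom3 (r = 0.939, rho 0.852), Ankrd2 (0.886, rho 0.783), Csrp3 (0.885, rho 0.709), Actn2 (0.865, rho 0.782) and Lmod2 (0.82, rho 0.722), with adjusted p between 0.00423 and 0.013. By rank, Csrp3 and Lmod2 did not pass (adjusted p = 0.051 and 0.0544 for rho). Without the 2 farthest arrays, Myom3 kept its call (r = 0.863, adjusted p = 0.0181) and the other 4 lost theirs: Actn2 had an adjusted p of 0.0635 (r = 0.779), Ankrd2 0.125 (r = 0.737), Lmod2 0.135 (r = 0.733) and Csrp3 0.261 (r = 0.629). The slopes were then 0.283 for Actn2, 0.387 for Ankrd2, 0.332 for Lmod2 and 0.411 for Csrp3, against 0.23, 0.386, 0.264 and 0.598 over all 24 arrays. That left 7 members, where 0.312% of all names passed, 0.302% as positive and 0.0101% as negative. Without HFD_Cont 4 alone 10 members passed, all but Csrp3 (adjusted p = 0.0886), where 0.609% of all names passed, 0.594% as positive and 0.0151% as negative. Csrp3 had r = 0.139 on slide 1, 0.915 on slide 2 and 0.49 on slide 3, and HFD_Cont 4 lay on slide 2.

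Probes of 1 gene differed most for Tpm3 in their slope on Myh7. The 2 probes printed above, at chr3:89893733-89893942 and chr3:89892985-89893044, had slopes on Myh7 of 0.905 ± 0.034 and 0.842 ± 0.043. The probes nearer the 3′ end of the gene, at chr3:89904428-89904487 and chr3:89904762-89904821, had slopes of 0.083 ± 0.027 and 0.104 ± 0.026, and the 1 at chr3:89883597-89883656, well above background on 19 arrays, had 0.093 ± 0.064. Their SD within groups was 1.28 and 1.21 for the first pair and 0.205, 0.217 and 0.419 for the others. By permutation, adjusted over 29158 probes, the probe at chr3:89904762-89904821 was positively related to Myh7 (r = 0.67, adjusted p = 0.0171). The probes at chr3:89904428-89904487 (r = 0.566, adjusted p = 0.188) and chr3:89883597-89883656 (r = 0.312, adjusted p = 0.682) did not pass. Tpm3 is known to give muscle and non-muscle tropomyosins from alternative exons, and which transcripts each probe reads was not tested. Both probes of Tnni1 (slopes 0.976 and 0.937) and both of Tnnt1 (0.962 and 0.945) gave the same picture. Further probes of Actn2, Myl1 and Tpm1, given above, departed from the probe used in a group difference, and that of Ttn in its SD within groups. A further Myoz2 probe differed by 0.81 ± 0.49 in HFD_O3 against STD_Cont mice, where the probe used gave -0.29 ± 0.37.

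Mybph and Actc1 varied together. Neither followed Myh7: r was -0.388 for Mybph (adjusted p = 0.353) and -0.31 for Actc1 (adjusted p = 0.534). Mybph was then set against all 19880 names by the same test, which was chosen after seeing the data, and 44 names passed (0.221%), 8 of them positive. Actc1 ranked 1 among the names by r, at 0.87 (rho 0.882, permutation p = 1e-05, adjusted p = 0.0234). Without the 2 arrays farthest from the Mybph median, STD_Cont 6 and STD_Cont 7, r was 0.862 (adjusted p = 0.0361), and within slides it was 0.875, 0.952 and 0.821. The slope was 0.635 ± 0.080 log2 units of Actc1 for each of Mybph. No other member passed on Pearson's r, and Lmod3 was the most negative of the members at -0.709 (adjusted p = 0.0946, rho -0.749 with adjusted p = 0.0459). Without STD_Cont 6 and STD_Cont 7, Lmod3 had r = -0.606 (adjusted p = 0.289).

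Of the 44 other sarcomere genes listed for context, 42 were measured. In HFD_Cont against STD_Cont mice 2 were lower and 0 higher, where 1.48% of all names passed as lower, and in the comparisons with HFD_O3 0 passed (limma). At an unadjusted p under 0.05, 7 of 42 passed for HFD_Cont against STD_Cont, 2 for HFD_O3 against HFD_Cont and 6 for HFD_O3 against STD_Cont, where 16.6%, 7.09% and 11.2% of all names did. Pdlim5, a Z-disc PDZ and LIM protein, averaged 5.52 ± 0.09 in HFD_Cont and 5.91 ± 0.18 in STD_Cont mice (SD, n = 8 each), a difference of -0.39 ± 0.09 (adjusted p = 0.0179, limma). Fhl3, a LIM protein found at the Z-disc, averaged 0.23 ± 0.16 in HFD_Cont and 0.53 ± 0.19 in STD_Cont mice, a difference of -0.30 ± 0.08 (adjusted p = 0.0409).

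Markers of other tissues were summed per array as linear levels relative to the 75th percentile. Each sum rests mainly on the brightest probes of its list, so sums do not compare lists or measure the amount of a cell type. Which probes carried each sum was not tested. The 10 white adipocyte markers, all measured, had a lowest, median and highest sum of 379, 453 and 747 in HFD_O3, 421, 524 and 773 in HFD_Cont and 368, 459 and 607 in STD_Cont. The 7 measured of 8 tendon markers had 23.1, 29.3 and 34.6 in HFD_O3, 30.8, 37.1 and 46.2 in HFD_Cont and 22.1, 30.8 and 39.8 in STD_Cont. Gene by gene, the 10 adipocyte markers had a median log2 difference of -0.933 for HFD_O3 against HFD_Cont, with 1 above 0 and 9 below. Their median was 0.357 for HFD_Cont against STD_Cont, with 8 above and 2 below. For HFD_O3 against STD_Cont it was -0.0461, with 5 above and 5 below. Of the 7 heart markers 4 were measured, with medians of 20.3, 19.7 and 19.2 in HFD_O3, HFD_Cont and STD_Cont, and Myl7, Tnni3 and Ryr2 did not reach the background filter. The 5 markers of regenerating or developing fibre had medians of 2930, 2710 and 2640, and the other lists were Schwann (22.4, 25.8 and 35.9), erythroid (319, 364 and 400), smooth muscle (394, 415 and 423), satellite cell (0.525, 0.587 and 0.571), endothelial (9.1, 8.44 and 8.32) and fibroblast (205, 220 and 231) in the same group order. No marker of these lists passed the threshold in any comparison, and their part in the member values was not tested.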

How the data were processed

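Total RNA of skeletal muscle from 24 mice was hybridised to one-colour Agilent arrays on 3 slides of 8, per the labels and the file headers. The deposited scanner files hold spot intensity, which Agilent Feature Extraction 10.10.1.1 had background-subtracted per the file headers, with probe coordinates on mm9. The deposited value table of the authors holds log2 values, and limma is named without a version in the submitters' processing notes. The table tracked the log2 median signal (lowest correlation 0.99956) and was used as an alternative.

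Spots with an outlier flag were dropped, replicate spots averaged, and the 75th percentile of the array subtracted from log2 processed intensity; the percentile ranged from 161.9 to 293.2. Probes well above background on at least 6 of 8 arrays of a group were kept (29245), and each of 19937 names took its probe of highest mean. Differences were fitted with limma 3.58.1 (R 4.3.3) on all 24 arrays without a block, two-sided, at an adjusted p of 0.05 (Benjamini-Hochberg, every name). Exact permutation used 12870 arrangements. Relations to Myh7 were adjusted over all 19880 names without missing values, in place of the members alone as first written, and used numpy 2.4.6.

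The members and lists were chosen with earlier results of these data known. The text gives group values for members with an unadjusted limma p under 0.05, the slow and fast troponins, the light chains, Ankrd1, Ankrd2, Csrp3 and the widest members. Any other gene given group values was singled out after its values were seen. Both procedures were tested on simulated data. Replicate numbers follow no stated pairing, and the precision is limited by the number of arrays. The alternatives were other background corrections and normalizations, filters, probe rules, slide, row or replicate as a block, single slides, variance models, adipocyte score and each array left out. Added after seeing the data were every probe, HFD_Cont 4 left out of the Myh7 relation and of the spread, and the Mybph relation.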

Additional observations from a re-analysis of the deposited data

Results flagged for a closer look

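In 14 of 117 tests of a member or of the slow-minus-fast balance in a group of 8, the extreme array lay apart from the others by Dixon's test, where chance gives about 1 in 20. HFD_Cont 4 was that array in 9, always as the lowest: Tnnc1 (-0.79), Tnni1 (0.67), Tnnt1 (2.71), Myl2 (2.39), Myoz2 (2.79), Myom3 (2.36), Csrp3 (1.35), Ankrd2 (4.04) and slow minus fast (-3.25). STD_Cont 7 was lowest of its group in Actn3 (8.92, next 9.29) and Myoz1 (8.82, next 9.08), fast genes, and it had the highest Myh7 of the 24 arrays at 8.73. STD_Cont 4 was lowest of its group in Myl3 (9.34, next 9.65) and Neb (7.89, next 8.04). HFD_O3 1 was lowest of its group in Tmod1 (3, next 3.36). These genes vary together, so the 9 values of HFD_Cont 4 are not separate events.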

How the results depend on the processing

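Over 45 alternatives, 0 of 5130 recomputed member differences passed the threshold, and 473 changed sign, all of them uncalled. Counts over all names moved: HFD_Cont against STD_Cont gave 581, and 177 with median scaling, 135 with no filter, 73 with slide by row as a block, 1166 with only both groups fitted, 1168 with array weights, 1238 without HFD_O3 arrays 1 and 7, and 0 on each slide alone and without 8 arrays of high adipocyte score (182 without STD_Cont 1 to 977 without HFD_O3 7). HFD_O3 against STD_Cont gave 119, and 62, 46, 47 and 36 under the first 4 of these, 0 on each slide and without the adipocyte-rich arrays (68 without HFD_O3 6 or STD_Cont 3 to 343 without HFD_O3 7). HFD_O3 against HFD_Cont gave 0, and 1 without HFD_Cont 3. The replicate block gave 628, 0 and 89 names and changed no member call; same-numbered arrays correlated at -0.145 to 0.365, with 2 of 8 pairs over 0.1 in each comparison. Slow minus fast moved within slides to 1.15 and -1.81 (HFD_Cont against STD_Cont), 1.96 (HFD_O3 against HFD_Cont), and 0.559 and -1.26 (HFD_O3 against STD_Cont). Members related to Myh7 numbered 11, and 7 without the 2 farthest arrays and 12 with quantile normalization. Fewer arrays enter the slide and left-out fits; the cause of the other shifts was not tested.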
